A study of Mus musculus with 45 samples.

Results

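The comparison set 3 libraries of mouse macrophages given interleukin-4 (IL-4) for 4 h against 3 libraries of untreated macrophages, paired by replicate number. These 6 libraries were chosen by their labels from the 45 samples of the series, and 11380 of 24421 listed genes were tested. The cells were bone-marrow-derived macrophages of the strain C57BL/6, grown in L929-conditioned medium and used on day 7, and the treated cells received IL-4 at 10 ng/ml. Untreated cells had the same strain, medium and day and no added cytokine. Levels are CPM (counts scaled to the reads of each library) from poly(A) RNA libraries, rescaled by a median-ratio factor per library, with 3 libraries a group. A log2 change is that of log2(CPM + 1), which understates the change of genes near or under 1 CPM.

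IL-4 is a type 2 cytokine that T helper cells, basophils and innate lymphoid cells release in helminth infection, allergy and tissue repair. In macrophages it binds IL-4 receptor α with a second chain, activates the Janus kinases and phosphorylates the transcription factor STAT6. STAT6 then drives the program called alternative activation, which includes arginase 1, resistin-like and chitinase-like proteins, the mannose receptor and the PD-1 ligand PD-L2, while inhibitors of the SOCS family are induced and restrain the receptor. The program builds up in waves, since some of the first genes encode transcription factors.

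STAT6 dimers bind the palindrome TTCNNNNGAA, and other STAT dimers also bind the shorter TTCNNNGAA. MYC with its partner MAX binds CACGTG. All 3 motifs read the same on both strands, and a TTCNNNNGAA whose inner letters allow it can contain CACGTG. They were searched in RefSeq promoter windows of GRCm38.p6, from 250 bases before a gene's annotated start to 50 bases after it. Windows were found for 12 of 16 key genes of the IL-4 response, and 3 of these windows, those of Retnla, Tmem26 and Pdcd1lg2, held TTCNNNNGAA. The 3 genes had at most 0.353 CPM in any untreated library and at least 41.3 CPM in each IL-4 library, so their windows are shown, 5′ to 3′ with the motif in capitals. That of Retnla lies at chr16:48842359-48842658 on the plus strand, with the motif's first base at -145 from the start. That of Tmem26 lies at chr10:68723496-68723795 on the plus strand, with matches at -227 and -41, and that of Pdcd1lg2 at chr19:29410669-29410968 on the plus strand, with a match at -82.
Retnla: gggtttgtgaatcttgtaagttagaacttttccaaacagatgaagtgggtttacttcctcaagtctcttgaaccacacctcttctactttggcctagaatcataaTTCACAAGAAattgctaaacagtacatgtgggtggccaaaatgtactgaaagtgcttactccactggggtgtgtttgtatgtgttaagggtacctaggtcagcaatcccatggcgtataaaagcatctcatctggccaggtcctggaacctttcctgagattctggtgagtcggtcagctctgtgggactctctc
Tmem26: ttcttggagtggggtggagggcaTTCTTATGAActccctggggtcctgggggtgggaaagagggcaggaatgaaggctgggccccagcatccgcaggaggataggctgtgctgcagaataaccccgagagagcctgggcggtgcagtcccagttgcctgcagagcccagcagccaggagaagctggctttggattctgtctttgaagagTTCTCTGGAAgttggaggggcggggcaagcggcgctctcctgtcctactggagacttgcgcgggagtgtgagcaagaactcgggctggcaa
Pdcd1lg2: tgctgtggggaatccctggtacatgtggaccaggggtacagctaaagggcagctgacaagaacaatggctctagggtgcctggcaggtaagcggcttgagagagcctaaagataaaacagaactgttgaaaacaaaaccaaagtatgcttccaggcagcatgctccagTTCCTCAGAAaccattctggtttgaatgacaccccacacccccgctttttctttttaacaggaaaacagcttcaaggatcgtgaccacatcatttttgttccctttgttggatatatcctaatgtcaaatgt
TTCNNNGAA stood in 2 of the 12 windows of key genes, those of Chil3 and Cish. The window of Cish, a SOCS-family inhibitor, had it at positions 0 and 11 and lies at chr9:107296409-107296708 on the plus strand.
Cish: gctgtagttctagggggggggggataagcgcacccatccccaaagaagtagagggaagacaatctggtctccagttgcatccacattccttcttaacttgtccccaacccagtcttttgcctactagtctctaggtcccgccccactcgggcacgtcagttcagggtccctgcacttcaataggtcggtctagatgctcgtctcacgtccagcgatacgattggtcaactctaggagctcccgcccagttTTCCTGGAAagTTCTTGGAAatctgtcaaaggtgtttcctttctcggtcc
For scale, TTCNNNNGAA stood in 8.01% of the 27025 genes with a window and in 6.7% of the 9180 genes that were also tested. Among genes called higher by log2 2 or more it stood in 11 of 88 windows (12.5%), and among those called lower by log2 2 or more in 0 of 33. TTCNNNGAA stood in 8.4% of the tested genes with a window. A match is a run of letters and not a measured binding site.

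Depth ran from 43955651 to 49492380 reads in the IL-4 libraries and from 28920801 to 80028327 reads in the untreated libraries. Rn45s, the ribosomal RNA precursor, took 0.240%, 0.475% and 0.173% of reads in IL-4 replicates 1, 2 and 3, against 0.151%, 43.2% and 15.7% in untreated replicates 1, 2 and 3. Lars2 took 0.152%, 0.207% and 0.149% of reads in the IL-4 replicates, against 0.120%, 7.42% and 2.76% in untreated replicates 1, 2 and 3. Untreated replicates 2 and 3 thus stood apart in both entries, and the reads these entries took lowered the CPM of other genes there. Why these libraries differ was not tested. The rescaling set the median log2 change over all genes at -0.0061, against 0.425 as deposited, and changes are given on the rescaled values. A count "without the block" leaves out the pairing by replicate number, and a count "as deposited" leaves out the rescaling and so includes the 0.425 shift. Whether the replicates are different animals or separate cultures is not in the labels, so a p-value here gauges only how far the libraries scatter, which can be technical scatter. That scatter was pooled over all 21 poly(A) libraries, which include other cytokine treatments. With the 6 libraries only, 4733 genes were called, beside 5409. In bulk libraries fewer cells of a type and less RNA per cell cannot be told apart. Counting by strand is not stated, so reads of named genes whose exons overlap a measured gene on the other strand (Cd180 with Mast4, Cdk4 with Tspan31, Cox4i1 with Emc8, Csf1r with Hmgxb3, Ctsb with Fdft1, Cxcl10 with Art3, Dusp1 with Ergic1, Gapdh with Iffo1, Gnl3 with Pbrm1, Hsp90b1 with 1810014B01Rik, Hspd1 with Hspe1, Il1rap with Gm20319, Itga4 with Cerkl, Lpar6 with Rb1, Mlx with Psmc3ip, Myd88 with Acaa1a, Ncf1 with Gtf2ird2, Stat6 with Nab2, Timm9 with Tomm20l, Tnfsf9 with Gm11110, Tsr1 with Srr) cannot be told apart from that gene's reads.

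The cells carried macrophage genes. Csf1r, the receptor for macrophage colony-stimulating factor, stood at 5897, 3054 and 5298 CPM under IL-4, against 5019, 2721 and 4828 CPM in untreated macrophages, and the lysosomal marker Cd68 at 1246, 1113 and 1244 CPM, against 1319, 1327 and 1498 CPM. Neither was called (log2 change 0.18 ± 0.098 and -0.2 ± 0.088). Of the macrophage identity genes 3 of the 19 members tested rose and 8 fell (1 and 4 without the block, 4 and 1 as deposited): Cd14, the co-receptor for lipopolysaccharide, fell by log2 1.38. The defining genes of T cells (Cd3e) and natural killer cells (Ncr1) reached at most 0.027 and 0 CPM in any of the 6 libraries. Neutrophil granule and calgranulin genes were present and summed to 80.8 to 216 CPM over 11 genes under IL-4, against 125 to 249 CPM in untreated macrophages, with 0 rises and 4 falls (0 and 0 without the block, 1 and 0 as deposited). In the fibroblast and endothelial list 1 of 6 genes tested rose and 1 fell, and the sums were 10.6 to 15.3 CPM under IL-4 and 19.9 to 22.2 CPM in untreated macrophages. The gene that fell, Kdr, a vascular growth factor receptor, stood at 0.913, 1.502 and 0.512 CPM under IL-4 and 5.84, 13.95 and 6.66 CPM in untreated macrophages (log2 change -2.25 ± 0.16, adjusted p = 6.1e-09). In the T-cell list 4 genes were tested, 0 rose and 2 fell, and the sums of 141 to 310 CPM under IL-4 and 199 to 372 CPM in untreated macrophages came mainly from Cd28. Both falls were lost without the block and as deposited, where Cd28 was at log2 -0.36 (adjusted p = 0.41) and 0.12 (adjusted p = 0.62). The part of these genes in the results below was not tested.

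At an adjusted p under 0.05, 5409 of the 11380 genes were called, which is 47.5%, with 2722 higher under IL-4 (23.9%) and 2687 lower (23.6%). Most of these changes were small, with a median size of log2 0.48. A log2 change of at least 1 was reached by 412 genes in each direction, and one of at least 2 by 112 genes that rose and 51 that fell. The IL-4 libraries all lay above the untreated libraries in 19% of the genes tested and all below them in 16.4%. Counts of list members below, called or without overlap, are to be read beside these shares over all genes. Of the genes that rose, 1945 had no overlap between the groups, as had 1671 of those that fell. The pairing mattered for the total: without the block 1366 genes were higher and 1149 lower. Leaving out replicate 3 in all groups gave 1627 higher and 1623 lower, and the deposited values gave 5477 higher and 577 lower. With untreated replicate 1 as the lone control, 1766 genes were higher and 1894 lower, and 1696 and 1714 of these were among the genes called the same way above. Genes given below as risen or fallen kept that direction and call in every alternative tried, except where a sentence gives another value. Where a called gene's values are given per library, the 3 IL-4 libraries lie all above or all below the 3 untreated ones, except for Chil3, Ifit1 and Cdc6, whose groups overlap.

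**Figure D1:**
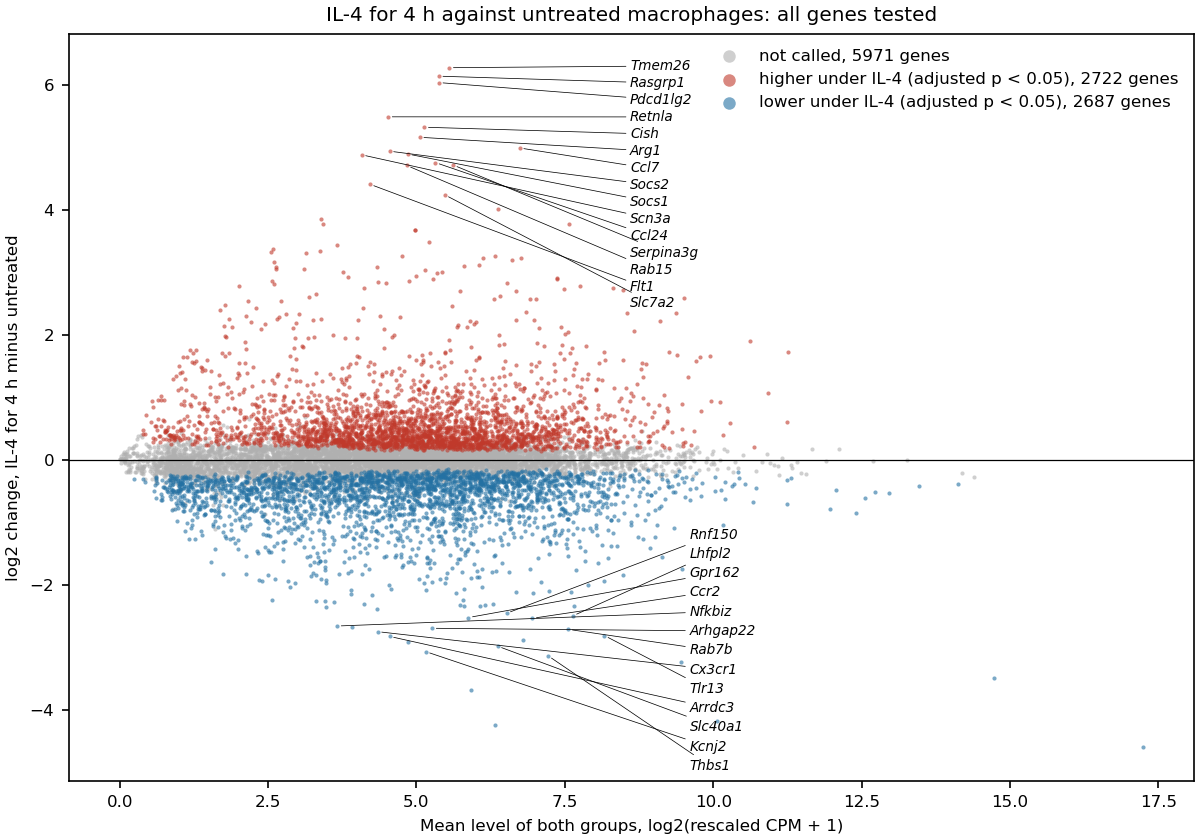
Log2 change under IL-4 for 4 h (vertical axis, IL-4 minus untreated) against the mean level of both groups on a log2 scale (horizontal axis) for the 11380 genes tested, with 2722 called higher in red and 2687 called lower in blue. Names mark the 15 largest rises and 13 of the 15 largest falls that met the naming rule, and the rises reach further from 0 (Tmem26, 6.27) than the named falls (Thbs1, -3.14).

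The IL-4 receptor α chain and a kinase of the pathway rose, while the partner chain of the type II receptor fell. Il4ra, which encodes IL-4 receptor α, had 1096, 1247 and 987 CPM under IL-4, against 229, 189 and 232 CPM in untreated macrophages. All IL-4 libraries lay far above all untreated ones (log2 change 2.35 ± 0.18, adjusted p = 1.0e-08; chromosome 7, 125552120 to 125579474, plus strand). Jak2, a kinase of the pathway, had 146, 129 and 112 CPM against 52.4, 44.6 and 40.8 CPM in untreated macrophages (log2 change 1.47 ± 0.09, adjusted p = 9.9e-10). Il13ra1, the second chain of the type II receptor that IL-4 shares with IL-13, fell to 12.2, 11.4 and 10.4 CPM, against 36.02, 21.2 and 24.8 CPM in untreated macrophages (log2 change -1.17 ± 0.12, adjusted p = 5.1e-07). Il2rg, the partner chain of the type I receptor, was not called (-0.17 ± 0.11) and is named here after its value was seen. Stat6 itself stood at 208, 162 and 191 CPM under IL-4 and 249, 233 and 244 CPM in untreated macrophages (log2 change -0.38 ± 0.074, adjusted p = 4.3e-04), a fall that became a change of 0.1 as deposited. Of the IL-4 receptor and JAK-STAT components 5 of the 23 members tested rose and 5 fell (3 and 4 without the block, 9 and 2 as deposited), shares close to those over all genes, and Ptpn2, a phosphatase that acts on Janus kinases and STATs, rose by log2 0.86 ± 0.099.

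The SOCS family, whose members bind receptors or Janus kinases and shut signalling down, held 3 of the 15 largest rises that met the naming rule. Socs1 had 42.5, 66.9 and 55.6 CPM under IL-4, against 1.303, 0.838 and 0.5101 CPM in untreated macrophages (log2 change 4.89 ± 0.19, adjusted p = 5.2e-12; chromosome 16, 10782240 to 10785536, minus strand). Cish had 75.3, 60.4 and 66.7 CPM against 0.841, 0.419 and 0.899 CPM in untreated macrophages (log2 change 5.32 ± 0.2, adjusted p = 4.4e-12; chromosome 9, 107296026 to 107302784, plus strand). For Socs2 the levels were 50.2, 42.8 and 39.8 CPM under IL-4 and 0.651, 0.299 and 0.483 CPM in untreated macrophages (log2 change 4.94 ± 0.13, adjusted p = 4.2e-14). In these 3 genes every IL-4 library exceeded every untreated library by more than 30-fold. Socs5 rose less, by log2 0.92 ± 0.1, whereas Socs3, the inhibitor of gp130 receptors, was not called (-0.63 ± 0.27, adjusted p = 0.067) and Socs6 fell (-0.73 ± 0.13, adjusted p = 1.4e-04, 0.058 without the block and 0.31 as deposited). In all 4 of the 8 members tested rose and 2 fell (4 and 0 without the block, 4 and 0 as deposited).

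**Figure D2:**
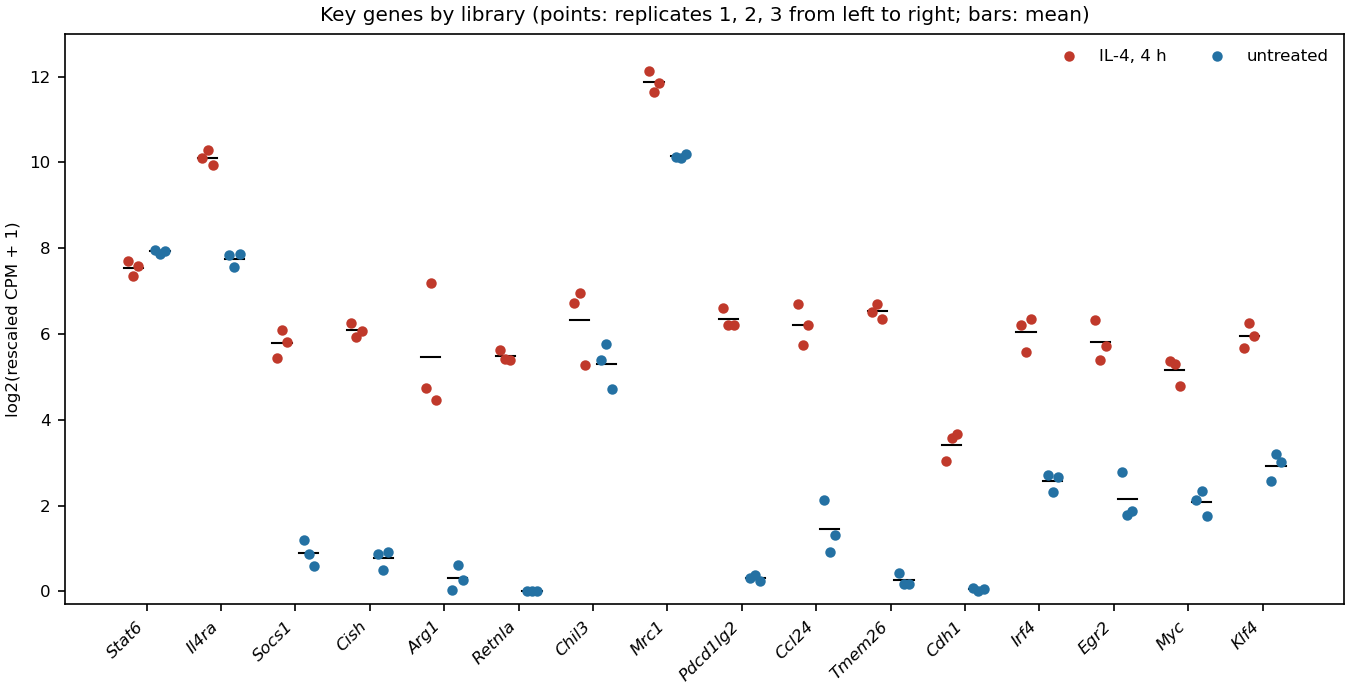
Levels of the 16 key genes in each library as log2(rescaled CPM + 1), with IL-4 for 4 h (red) left of untreated (blue), points in the order of replicates 1, 2 and 3 and bars at the mean of 3 libraries. The groups are separate for all genes shown except Chil3, and replicate 2 stands above the others for Arg1 in both groups.

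The markers of alternative activation had the highest median of the lists with tested members. Of these genes 21 of the 27 members tested rose and 3 fell (17 and 1 without the block, 22 and 1 as deposited), with a median log2 change of 1.83. The list was chosen with earlier results of these data known and holds several of the largest rises. Its share and median therefore give no independent support. Only 27 of its 33 measured members passed the filter, and Ccl17 and Ccl22 were among those too low to be tested. Retnla, which encodes the secreted resistin-like molecule α, had 48.8, 41.9 and 41.3 CPM under IL-4 and 0 reads in each untreated library (chromosome 16, 48842551 to 48844461, plus strand). Taken against 3 reads over the untreated group, 0.0234 CPM, its mean of 43.98 ± 4.14 CPM (SD, n = 3) was at least 1877-fold higher. Arg1, the arginase that turns arginine into ornithine and urea, had 25.9, 146 and 20.9 CPM under IL-4, against 0.0271, 0.539 and 0.201 CPM in untreated macrophages (chromosome 10, 24915221 to 24927484, minus strand). Replicate 2 was the highest of its group in both, and the rises within the pairs were log2 4.71, 6.58 and 4.19 (fitted log2 change 5.16 ± 0.4, adjusted p = 1.7e-08). Chil3, a chitinase-like protein, had 105, 123 and 37.5 CPM under IL-4 and 40.8, 53.4 and 25.4 CPM in untreated macrophages. Its groups overlapped, since IL-4 replicate 3 lay below untreated replicates 1 and 2, but each pair rose (1.35, 1.19 and 0.54). Chil3 was called with the pairing (log2 change 1.03 ± 0.16, adjusted p = 3.8e-05) and not without it (adjusted p = 0.27).

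Several surface proteins of the program rose with it. The scavenger receptor genes Msr1 (log2 change -1.03) and Stab1 (-0.71), of the same list, were called lower. That list counted 3 falls, against 1 without the block and 1 as deposited. Tmem26, a membrane protein, had 90.9, 103 and 80.9 CPM under IL-4, against 0.353, 0.1198 and 0.121 CPM in untreated macrophages (log2 change 6.27 ± 0.13, adjusted p = 1.9e-15; chromosome 10, 68723646 to 68782650, plus strand). Pdcd1lg2, the PD-1 ligand PD-L2, had 96.9, 73.1 and 72.8 CPM against 0.244, 0.299 and 0.175 CPM in untreated macrophages (log2 change 6.04 ± 0.21, adjusted p = 1.4e-12; chromosome 19, 29410919 to 29471161, plus strand). In both genes the IL-4 libraries differed from each other by less than 1.5-fold and the untreated ones were all under 0.4 CPM. Mrc1, the mannose receptor, was present before treatment and stood at 4451, 3209 and 3676 CPM under IL-4, against 1111, 1093 and 1179.6 CPM in untreated macrophages (log2 change 1.73 ± 0.12, adjusted p = 7.0e-09; chromosome 2, 14229392 to 14332057, plus strand). Cdh1, the adhesion protein E-cadherin, had 7.16, 10.8 and 11.7 CPM against 0.0543, 0 and 0.0403 CPM in untreated macrophages (log2 change 3.38 ± 0.15, adjusted p = 1.5e-11). Mgl2, a galactose-type lectin, rose by log2 2.75 ± 0.28, Itgb3, the integrin β3 chain, by 2.21 ± 0.17, and Flt1, a receptor for vascular growth factors, by 4.41 ± 0.18. Clec10a rose with the pairing (1.41 ± 0.25, adjusted p = 1.6e-04) and was not called without it (0.2). Rasgrp1, an exchange factor that activates Ras, had 81.9, 66.2 and 94.8 CPM under IL-4, against 0.217, 0.1198 and 0.121 CPM in untreated macrophages (log2 change 6.14 ± 0.29, adjusted p = 3.4e-11).

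Some of the largest rises lie outside the usual marker lists. Scn3a, a voltage-gated sodium channel chain, had 36.3, 23.7 and 35.05 CPM under IL-4, against 0.0814, 0.0599 and 0.134 CPM in untreated macrophages (log2 change 4.88 ± 0.12, adjusted p = 1.2e-14). Rab15, a small GTPase of endosome recycling, had 21.1, 112 and 30.3 CPM against 0.0814, 1.68 and 0.5101 CPM in untreated macrophages (log2 change 4.71 ± 0.23, adjusted p = 4.7e-11), with replicate 2 again the highest in both groups. Serpina3g, a protease inhibitor gene with near-identical neighbours, so that its reads are uncertain, had 126, 83.3 and 71.7 CPM against 3.31, 2.99 and 1.49 CPM in untreated macrophages (log2 change 4.72 ± 0.19, adjusted p = 7.7e-12).

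Transcription factors linked to the IL-4 response rose in part of their list, where 12 of the 32 members tested rose and 6 fell (11 and 2 without the block, 16 and 2 as deposited). Irf4, an interferon regulatory factor needed for much of alternative activation, had 73.4, 46.7 and 80.04 CPM under IL-4, against 5.54, 4.01 and 5.37 CPM in untreated macrophages (log2 change 3.48 ± 0.17, adjusted p = 6.7e-11; chromosome 13, 30749226 to 30766976, plus strand). Egr2, an early growth response factor, had 79.5, 40.8 and 51.9 CPM against 5.84, 2.46 and 2.64 CPM in untreated macrophages (log2 change 3.67 ± 0.46, adjusted p = 5.2e-06), replicate 1 being the highest in both groups. Myc, the growth-promoting bHLH factor, had 40.5, 38.3 and 26.8 CPM under IL-4 and 3.39, 4.07 and 2.38 CPM in untreated macrophages (log2 change 3.08 ± 0.13, adjusted p = 9.7e-12; chromosome 15, 61985391 to 61990374, plus strand). In all 3 genes the lowest IL-4 library was above the highest untreated library by more than 5-fold. Klf4, a zinc-finger factor of alternative activation, rose by log2 3.03 ± 0.22, the bZIP factor Batf3 by 3.44 ± 0.16 and the bZIP repressor Nfil3 by 3.23 ± 0.21. Ahr, the aryl hydrocarbon receptor, had 106, 56.9 and 66.6 CPM under IL-4, against 9.17, 6.53 and 9.52 CPM in untreated macrophages (log2 change 3.0 ± 0.13, adjusted p = 1.8e-11). Tfec, a macrophage factor of the MITF family, rose by log2 2.23 ± 0.16. The immediate-early gene Nr4a1, an orphan nuclear receptor, fell by log2 1.25, and Maf was not called (-0.2 ± 0.14).

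Arginine and polyamine genes moved mostly one way: 11 of the 22 members tested rose and 3 fell (9 and 0 without the block, 14 and 0 as deposited). Besides Arg1, the arginine carrier Slc7a2 had 57.2, 95.8 and 97.8 CPM under IL-4, against 2.39, 2.58 and 5.83 CPM in untreated macrophages (log2 change 4.24 ± 0.14, adjusted p = 1.1e-12). Odc1, ornithine decarboxylase, the entry enzyme of polyamine synthesis, had 43.4, 53.5 and 34.1 CPM against 18.7, 24.4 and 14.9 CPM in untreated macrophages (log2 change 1.14 ± 0.13, adjusted p = 1.4e-06). Srm, spermidine synthase, had 41.01, 42.9 and 31.2 CPM under IL-4 and 9.93, 9.701 and 7.06 CPM in untreated macrophages (log2 change 1.99 ± 0.14, adjusted p = 3.5e-09). The groups of these 3 genes did not overlap. Sat1, which acetylates polyamines for breakdown and export, also rose (0.77 ± 0.11), and Asl, argininosuccinate lyase, was not called (-0.06 ± 0.069).

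Genes for making ribosomes rose nearly as a block, by modest amounts. Of the nucleolar ribosome-biogenesis genes 47 of the 50 members tested rose and 0 fell (42 and 0 without the block, 50 and 0 as deposited), with a median log2 change of 0.76. In 45 of the 50, called or not, all IL-4 libraries lay above all untreated ones, beside 19% of all genes. Nolc1, a nucleolar phosphoprotein, had 109.5, 89.5 and 73.9 CPM under IL-4, against 34.4, 35.6 and 28.04 CPM in untreated macrophages (log2 change 1.44 ± 0.12, adjusted p = 4.8e-08). Tsr1, a factor of small-subunit maturation in yeast, rose by log2 1.46 ± 0.13, Gnl3, nucleostemin, by 1.43 ± 0.12, Ppan, a large-subunit assembly factor, by 1.38 ± 0.12, and Nop58, a core protein of box C/D snoRNPs, by 1.36 ± 0.15. Npm1, nucleophosmin, was not called (0.19 ± 0.083). Subunits of RNA polymerases I and III followed in part, as 14 of the 28 members tested rose and 3 fell (8 and 0 without the block, 24 and 0 as deposited), among them Polr3k (0.89 ± 0.072) and Polr1b (0.72 ± 0.1). The partner genes of MYC moved little: Max rose by log2 0.36 ± 0.093 (adjusted p = 0.0039, 0.22 without the block and 0.064 without replicate 3 in all groups) and Mlx by 0.39 ± 0.065. Of MYC and its partner factors 3 of the 10 members tested rose and 2 fell (2 and 1 without the block, 5 and 0 as deposited), which is 30% and 20%, near the shares over all genes.

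Fewer of the protein synthesis genes were called. Of the cytosolic aminoacyl-tRNA synthetases, which load amino acids onto tRNAs, 11 of the 20 members tested rose and 0 fell (3 and 0 without the block, 18 and 0 as deposited). Farsa, a chain of the phenylalanine enzyme, had 60.4, 64.97 and 62.2 CPM under IL-4, against 33.4, 36.6 and 37.7 CPM in untreated macrophages (log2 change 0.79 ± 0.067, adjusted p = 5.3e-08). Of the translation initiation and elongation factors 17 of the 32 members tested rose and 1 fell (11 and 0 without the block, 26 and 0 as deposited). Eef1e1, a scaffold protein of the synthetase complex, rose by log2 1.03 ± 0.095 and the cap-binding protein gene Eif4e by 0.88 ± 0.15, whereas the elongation factor gene Eef2 was not called (-0.096 ± 0.1). Nucleotide and one-carbon synthesis genes held 1 large change, that of Prps1, which makes the ribose phosphate donor of purine and pyrimidine synthesis. Prps1 had 166, 158 and 143 CPM under IL-4, against 7.301, 11.3 and 7.83 CPM in untreated macrophages (log2 change 4.02 ± 0.18, adjusted p = 1.8e-11; chromosome X, 140456613 to 140476140, plus strand). The other members moved less, Ctps, a CTP synthase, by log2 1.62 ± 0.18, Atic, an enzyme of purine synthesis, by 0.96 ± 0.092, and Mthfd1, a folate enzyme, by 0.72 ± 0.095. In that list 14 of the 32 members tested rose and 3 fell (8 and 1 without the block, 20 and 0 as deposited).

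With the pairing and all replicates, nuclear genes for mitochondrial proteins were called higher in most of the chaperone, import and ribosomal lists. Of the respiratory chain subunits 19 of 49 were called higher. Without replicate 3 in all groups 16 of 30 chaperone and import genes, 8 of 30 ribosomal genes and 6 of 49 respiratory chain genes were called higher. Of the mitochondrial chaperone and import genes 26 of the 30 members tested rose and 0 fell (14 and 0 without the block, 30 and 0 as deposited). Hspd1, the chaperonin HSP60, had 215, 205 and 159 CPM under IL-4, against 124, 129 and 98.9 CPM in untreated macrophages (log2 change 0.71 ± 0.11, adjusted p = 5.3e-05), and Timm10, a chaperone of the intermembrane space, had 13.6, 13.8 and 10.8 CPM against 6.41, 6.95 and 5.14 CPM in untreated macrophages (log2 change 0.94 ± 0.1, adjusted p = 8.6e-07). Their RefSeq windows hold CACGTG, at -80 and at 28, and are shown for that reason, in capitals at the motif, at chr1:55088194-55088493 on the minus strand for Hspd1 and chr2:84826771-84827070 on the plus strand for Timm10.
Hspd1: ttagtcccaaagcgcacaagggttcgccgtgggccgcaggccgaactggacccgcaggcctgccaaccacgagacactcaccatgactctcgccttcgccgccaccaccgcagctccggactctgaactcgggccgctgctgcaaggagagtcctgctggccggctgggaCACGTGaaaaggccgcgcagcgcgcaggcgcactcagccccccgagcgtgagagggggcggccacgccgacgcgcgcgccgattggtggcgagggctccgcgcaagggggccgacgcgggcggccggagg
Timm10: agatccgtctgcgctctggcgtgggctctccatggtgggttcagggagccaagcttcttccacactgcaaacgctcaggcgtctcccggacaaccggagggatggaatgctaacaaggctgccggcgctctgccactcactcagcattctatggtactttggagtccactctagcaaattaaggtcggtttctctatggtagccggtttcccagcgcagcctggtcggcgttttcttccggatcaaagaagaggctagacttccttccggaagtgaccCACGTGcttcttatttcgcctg
CACGTG stood in 7 of 29 windows of this list (24.1%) and in 7 of 43 windows of the nucleolar list (16.3%), beside 12.1% of the tested genes and 8.09% of all genes with a window. Among genes called higher by log2 2 or more it stood in 10 of 88 windows (11.4%). Among those called lower by log2 2 or more it stood in 5 of 33 (15.2%). A link of the motif to the rises was not tested. C1qbp, a mitochondrial matrix protein, rose by log2 0.9 ± 0.082 and Timm9, the partner of Timm10, by 0.85 ± 0.11. Of the mitochondrial ribosomal proteins 21 of the 30 members tested rose and 0 fell (8 and 0 without the block, 29 and 0 as deposited), for example Mrpl15 (1.1 ± 0.082) and Mrpl12 (0.85 ± 0.13). Of the nuclear-encoded respiratory chain subunits 19 of the 49 members tested rose and 1 fell (7 and 0 without the block, 44 and 0 as deposited). Cycs, cytochrome c, had 94.6, 132 and 88.6 CPM under IL-4, against 45.1, 77.4 and 39.95 CPM in untreated macrophages (log2 change 0.98 ± 0.12, adjusted p = 2.6e-06), whereas Sdha (-0.07 ± 0.062) and Cox4i1 (0.13 ± 0.081) were not called. With untreated replicate 1 as the lone control only 4 of the respiratory chain genes were called higher and 4 lower. Less the median of all genes, the median of the chaperone and import list was 0.38, and 0.328 with that lone control. It was 0.264 and 0.18 for the mitochondrial ribosomal list and 0.181 and 0.0755 for the respiratory chain list. The 15 genes of the mitochondrial genome that were looked up by name were not found among the listed genes, so they were not analysed here.

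**Figure D3:**
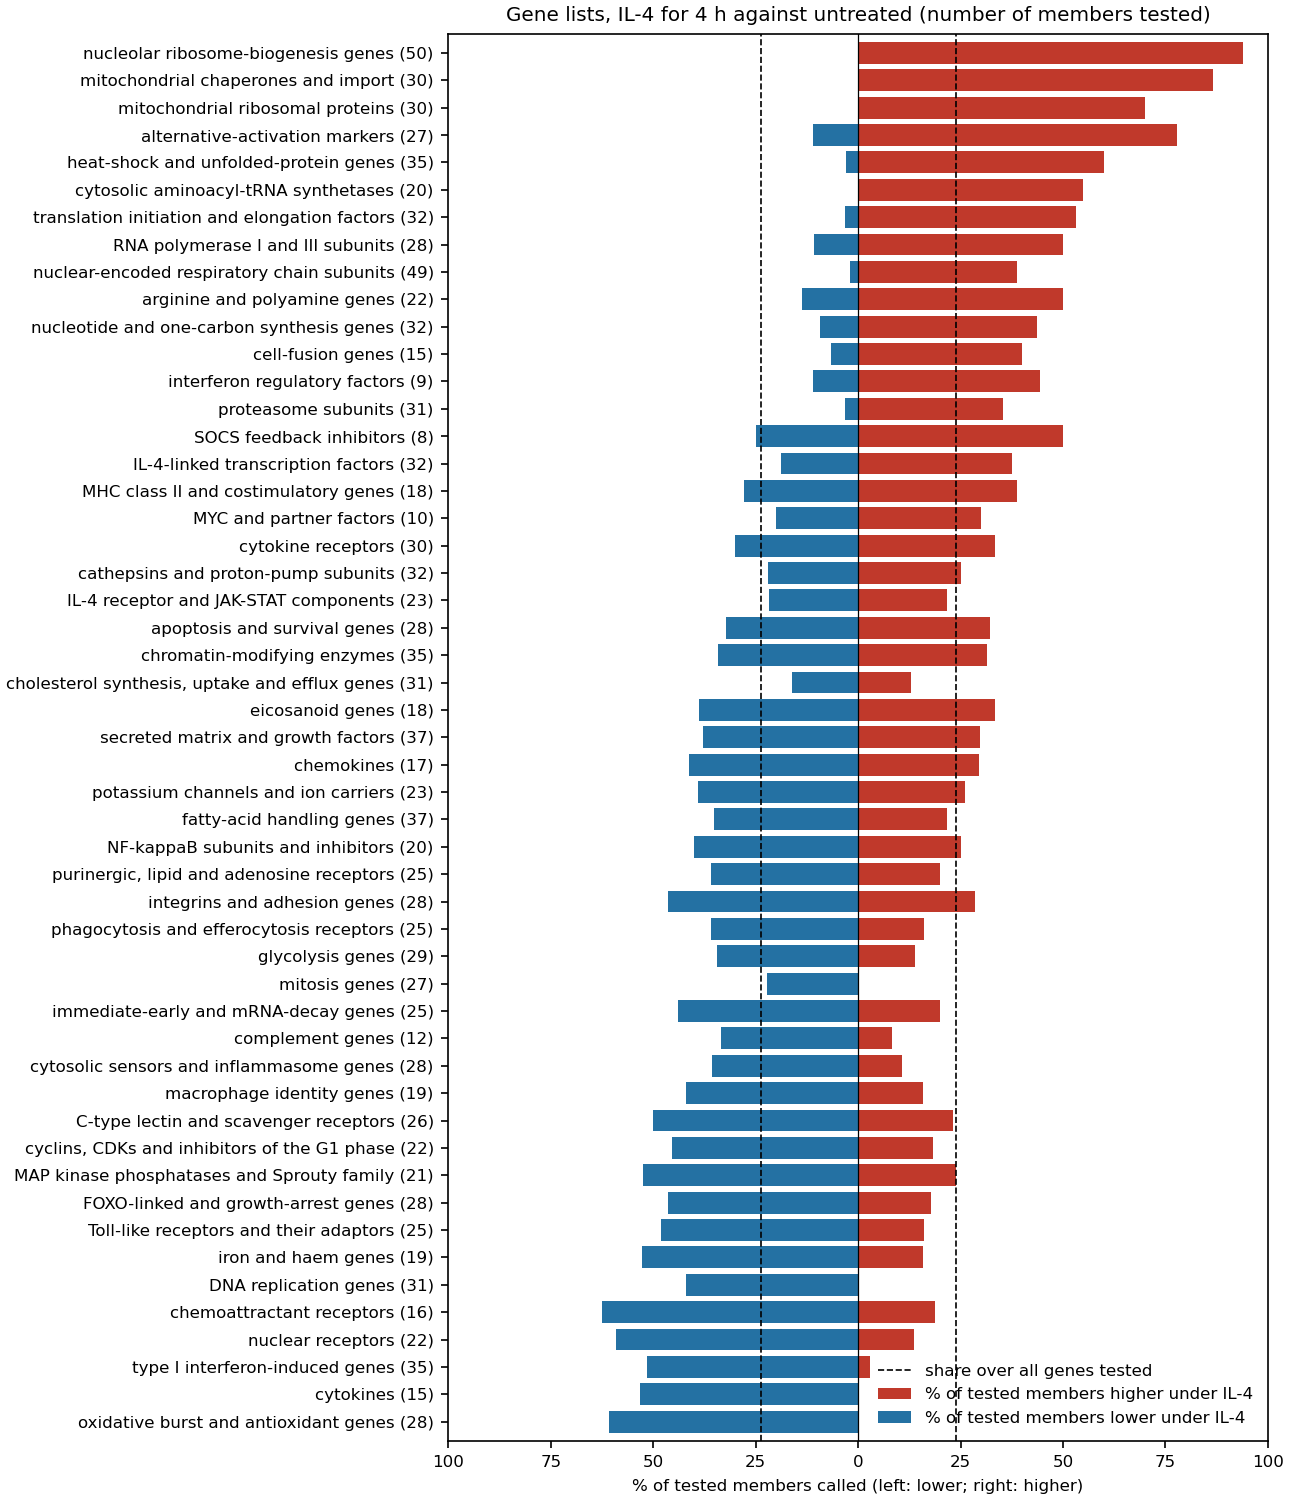
Share of the tested members of each gene list with at least 8 members tested, markers of other cell types left out, that were called higher (red, right) or lower (blue, left) under IL-4 for 4 h against untreated macrophages, with the number of members tested in brackets and dashed lines at the shares over all genes, 23.9% and 23.6%. Nucleolar genes (47 of 50), mitochondrial chaperones and import genes (26 of 30) and alternative-activation markers (21 of 27) reach furthest to the right of the lists shown, and chemoattractant receptors (10 of 16), oxidative burst and antioxidant genes (17 of 28) and nuclear receptors (13 of 22) furthest to the left.

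Fuel use genes showed no common direction. In glycolysis 4 of the 29 members tested rose and 10 fell (3 and 1 without the block, 12 and 0 as deposited), so that the balance turned with the scaling. Slc2a1, the glucose carrier GLUT1, had 59.4, 59.4 and 51.8 CPM under IL-4, against 32.98, 33.8 and 31.3 CPM in untreated macrophages (log2 change 0.78 ± 0.14, adjusted p = 1.6e-04), while Slc2a3, the carrier GLUT3, fell (-0.75 ± 0.13; -0.29 and not called as deposited). Gapdh, a glycolytic enzyme, was not called (-0.16 ± 0.076). In fatty-acid handling 8 of the 37 members tested rose and 13 fell (4 and 5 without the block, 17 and 2 as deposited), again a balance that turned with the scaling. Ppargc1b, the coactivator PGC-1β of oxidative metabolism, had 16.8, 10.6 and 16.01 CPM under IL-4 and 3.01, 2.81 and 2.87 CPM in untreated macrophages (log2 change 1.96 ± 0.2, adjusted p = 5.6e-07). Fabp4, a fatty acid carrier, fell to 6.89, 5.92 and 5.83 CPM, against 29.4, 15.9 and 13.9 CPM in untreated macrophages (log2 change -1.45 ± 0.18, adjusted p = 3.8e-06), and Plin2, the lipid droplet coat protein, fell by log2 1.0.

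A pair of cholesterol exporters moved apart. Abca1, which exports cholesterol to apolipoprotein A-I, had 103, 40.7 and 59.2 CPM under IL-4, against 436, 248 and 311 CPM in untreated macrophages (log2 change -2.34 ± 0.19, adjusted p = 2.4e-08). Mylip, a ubiquitin ligase, and Nr1h3, the oxysterol receptor LXRα, each fell by log2 1.09. Abcg1, which exports cholesterol to high-density lipoprotein, moved the other way, with 240.3, 322 and 211 CPM under IL-4 and 124, 186 and 123 CPM in untreated macrophages (log2 change 0.84 ± 0.084, adjusted p = 3.6e-07). In the whole list 4 of the 31 members tested rose and 5 fell (1 and 4 without the block, 22 and 3 as deposited).

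Of the chemokine genes 5 of the 17 members tested rose and 7 fell (5 and 3 without the block, 6 and 5 as deposited). These shares were 29.4% and 41.2%, beside 23.9% and 23.6% over all genes. Ccl24, an eosinophil attractant, had 102, 52.4 and 72.8 CPM under IL-4, against 3.39, 0.898 and 1.48 CPM in untreated macrophages (log2 change 4.76 ± 0.19, adjusted p = 9.0e-12; chromosome 5, 135569937 to 135573049, minus strand). Ccl7, a monocyte attractant, had 124, 449 and 49.95 CPM against 2.198, 7.49 and 2.31 CPM in untreated macrophages (log2 change 4.99 ± 0.25, adjusted p = 6.3e-11; chromosome 11, 82045712 to 82047525, plus strand). Its neighbour Ccl2, the main ligand of CCR2, had 77.7, 332 and 35.01 CPM under IL-4 and 6.49, 19.5 and 6.05 CPM in untreated macrophages (log2 change 3.26 ± 0.37, adjusted p = 1.5e-06). For Ccl7 and Ccl2 replicate 2 was the highest in both groups and replicate 3 the lowest under IL-4, and the groups did not overlap. Ccl8 (2.92 ± 0.25) and Ccl12 (2.24 ± 0.36), of the same gene cluster, rose too. Cxcl10, an interferon-induced attractant of T cells, fell to 6.16, 5.89 and 7.46 CPM, against 32.8, 20.3 and 13.6 CPM in untreated macrophages (log2 change -1.55 ± 0.25, adjusted p = 7.5e-05). Pf4 (-0.17 ± 0.099) and Ccl5 (-0.64 ± 0.32) were not called.

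Receptors for chemokines and complement peptides fell in most cases: 3 of the 16 members tested rose and 10 fell (0 and 9 without the block, 5 and 9 as deposited). In 9 of the 16, called or not, all IL-4 libraries lay below all untreated ones, beside 16.4% of all genes. Ccr2, the receptor for Ccl2 and Ccl7, had 21.1, 68.8 and 25.2 CPM under IL-4, against 133, 281 and 209.5 CPM in untreated macrophages (log2 change -2.54 ± 0.18, adjusted p = 5.9e-09; chromosome 9, 124101950 to 124113557, plus strand). The fractalkine receptor gene Cx3cr1 had 1.92, 5.73 and 5.08 CPM under IL-4 and 22.9, 27.2 and 53.2 CPM in untreated macrophages (log2 change -2.75 ± 0.31, adjusted p = 1.5e-06). All IL-4 libraries of both genes were below all untreated ones, and replicate 2 was the highest IL-4 library in each. C5ar1, the receptor for the complement peptide C5a, fell by log2 2.12 and Ccr1 by 1.68. C3ar1 fell by log2 0.35, and as deposited its change was 0.13. The receptor gene Cxcr3 was not called (0.22 ± 0.14).

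**Figure D4:**
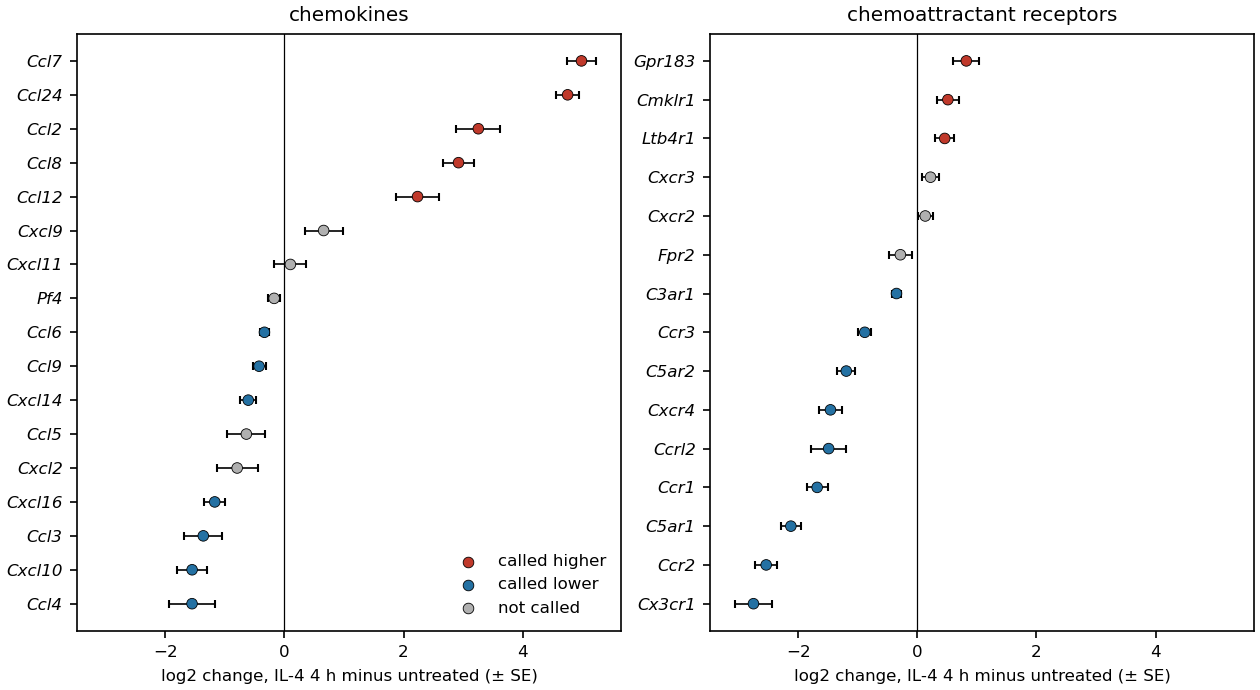
Log2 change under IL-4 for 4 h (IL-4 minus untreated, horizontal axis, with SE bars) of the 17 chemokines and of 15 of the 16 chemoattractant receptors tested, in red where called higher, blue where called lower and grey where not called. The 5 chemokines on the right are Ccl7, Ccl24, Ccl2, Ccl8 and Ccl12, and 9 receptors lie to the left of 0 in blue.

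No cytokine gene rose and some fell: 0 of the 15 members tested rose and 8 fell (0 and 4 without the block, 2 and 3 as deposited). Tnf, tumour necrosis factor, had 2.47, 0.984 and 2.44 CPM under IL-4, against 14.7, 8.504 and 7.97 CPM in untreated macrophages (log2 change -1.94 ± 0.31, adjusted p = 5.5e-05; chromosome 17, 35199381 to 35202007, minus strand), and Tnfsf9, the ligand of 4-1BB, had 0.968, 1.105 and 1.06 CPM against 4.29, 3.65 and 3.64 CPM in untreated macrophages (log2 change -1.25 ± 0.3, adjusted p = 0.0026). Csf1 (0.27 ± 0.16) and Tgfb1 (-0.21 ± 0.1) were not called. Among cytokine receptors 10 of the 30 members tested rose and 9 fell (5 and 6 without the block, 15 and 5 as deposited). Il1r1, the signalling receptor for interleukin-1, had 16.9, 26.2 and 13.1 CPM under IL-4, against 0.244, 0.419 and 0.295 CPM in untreated macrophages (log2 change 3.85 ± 0.17, adjusted p = 1.8e-11), and its co-receptor Il1rap rose by log2 1.28 ± 0.16. Il7r, the interleukin-7 receptor, fell by log2 1.80, Il17ra, the interleukin-17 receptor chain, by 1.66, and Tnfrsf11a, the osteoclast receptor RANK, by 1.31.

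Sensors of microbes fell more often than they rose. Of the Toll-like receptors and their adaptors 4 of the 25 members tested rose and 12 fell (1 and 8 without the block, 5 and 5 as deposited). Tlr13, the endosomal receptor for bacterial ribosomal RNA, had 61.3, 91.2 and 61.5 CPM under IL-4, against 493, 568 and 443 CPM in untreated macrophages (log2 change -2.81 ± 0.14, adjusted p = 5.1e-11; chromosome X, 106143204 to 106160493, plus strand). Tlr2, the receptor for bacterial lipoproteins, had 52.02, 20.3 and 54.03 CPM against 331, 73.1 and 213 CPM in untreated macrophages (log2 change -2.14 ± 0.21, adjusted p = 3.6e-07). Cd180, a Toll-like relative, fell by log2 1.62 and Irak2, a kinase of the pathway, by 1.37, whereas the adaptor gene Myd88 (-0.24 ± 0.1) and the kinase gene Irak1 (0.09 ± 0.053) were not called. Of cytosolic sensors and inflammasome genes 3 of the 28 members tested rose and 10 fell (3 and 6 without the block, 9 and 3 as deposited), a balance that turned with the scaling. Nod2, a peptidoglycan sensor, fell by log2 1.34 and the DNA sensor gene Aim2 by 0.97, while Nlrp10 rose by 1.29 ± 0.1. Nlrp3, which nucleates the best-known inflammasome, fell with the pairing (log2 change -1.15 ± 0.28, adjusted p = 0.0026), and its adjusted p was 0.14 without the block, 0.068 without replicate 3 throughout and 0.13 against untreated replicate 1 alone.

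Of the NF-κB genes 5 of the 20 members tested rose and 8 fell (2 and 2 without the block, 9 and 2 as deposited). The share that rose, 25%, was close to the 23.9% over all genes, and 40% fell, beside 23.6%. Nfkbiz, the atypical inhibitor IκBζ that coactivates inflammatory genes, had 2.78, 1.38 and 3.45 CPM under IL-4, against 22.3, 17.1 and 23.1 CPM in untreated macrophages (log2 change -2.66 ± 0.26, adjusted p = 2.6e-07). Rel, the subunit c-Rel, rose by log2 0.99 ± 0.15, and Tnip1, an inhibitor of NF-κB, fell by 0.94. The genes of the type I interferon response had a median of log2 -0.48, and 1 of the 35 members tested rose and 18 fell (0 and 2 without the block, 5 and 10 as deposited), so that most of these falls were called only with the pairing. Less the median of all genes, the list median was -0.477, and it shrank to -0.128 with untreated replicate 1 as the lone control. Rsad2, the antiviral enzyme viperin, had 15.7, 47.7 and 9.57 CPM under IL-4, against 115, 140.4 and 66.8 CPM in untreated macrophages (log2 change -2.34 ± 0.25, adjusted p = 7.4e-07). Replicate 2 was the highest in both groups, as it was for Ifit1 with 19.5, 70.1 and 11.5 CPM under IL-4 and 81.5, 107 and 42.4 CPM in untreated macrophages (adjusted p = 9.4e-05, 0.2 without the block). Irf1, an early interferon regulatory factor, rose by log2 0.97 ± 0.11, and Irf8, a factor of the myeloid lineage, was not called (-0.12 ± 0.094). Of interferon regulatory factors 4 of the 9 members tested rose and 1 fell (2 and 0 without the block, 5 and 0 as deposited).

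Among uptake receptors single members moved in opposite directions. Of C-type lectin and scavenger receptors 6 of the 26 members tested rose and 13 fell (4 and 7 without the block, 7 and 5 as deposited). Clec7a, the β-glucan receptor dectin-1, had 561, 316 and 401 CPM under IL-4, against 242, 82.5 and 128 CPM in untreated macrophages (log2 change 1.59 ± 0.21, adjusted p = 7.7e-06). Clec4e, the mycobacterial glycolipid receptor Mincle, went the other way, with 19.7, 14.6 and 15.6 CPM under IL-4 and 135, 58.1 and 55.8 CPM in untreated macrophages (log2 change -2.14 ± 0.3, adjusted p = 1.8e-05). Cd36 (0.23 ± 0.14) and Cd163 (-0.35 ± 0.16), scavenger receptors, were not called. Of phagocytosis receptors 4 of the 25 members tested rose and 9 fell (1 and 3 without the block, 8 and 1 as deposited). Fcgr2b, the inhibitory receptor for immunoglobulin G, had 1315, 1063 and 1340.0 CPM under IL-4, against 318, 117 and 230.5 CPM in untreated macrophages (log2 change 2.58 ± 0.18, adjusted p = 4.2e-09). Fcgr1, the activating high-affinity receptor, fell to 128, 155 and 108 CPM, against 223, 291 and 198 CPM in untreated macrophages (log2 change -0.86 ± 0.18, adjusted p = 8.0e-04), and was not called as deposited (log2 -0.38) or with untreated replicate 1 as the lone control (adjusted p = 0.053).

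Several costimulatory genes rose, and a main class II chain was not called. Cd40, a receptor for T-cell help, had 102, 65.1 and 106 CPM under IL-4, against 18.1, 11.3 and 10.3 CPM in untreated macrophages (log2 change 2.7 ± 0.19, adjusted p = 4.6e-09), and Cd274, the PD-1 ligand PD-L1, had 158, 149 and 103 CPM against 58.9, 26.6 and 30.9 CPM in untreated macrophages (log2 change 1.85 ± 0.22, adjusted p = 2.1e-06). Cd86, a ligand of CD28, rose by log2 1.16 ± 0.12. The class II chain gene H2-Ab1 was not called (0.03 ± 0.16), and in this list 7 of the 18 members tested rose and 5 fell (4 and 1 without the block, 9 and 1 as deposited). In integrins and adhesion genes 8 of the 28 members tested rose and 13 fell (6 and 4 without the block, 11 and 2 as deposited). That is 28.6% and 46.4%, beside 23.9% and 23.6% over all genes. Pecam1, the adhesion protein CD31, had 17.5, 11.1 and 16.7 CPM under IL-4, against 0.679, 0.659 and 0.4698 CPM in untreated macrophages (log2 change 3.31 ± 0.2, adjusted p = 7.7e-10). Itga6 (-1.58 ± 0.11) and Itga4 (-1.35 ± 0.13), integrin chains for laminin and for fibronectin and VCAM-1, fell. The hyaluronan receptor gene Cd44 rose by log2 0.99 ± 0.17 and Cd47, the ligand of SIRPα, by 0.6 ± 0.079. Both also stand in the list of cell-fusion genes, in which 6 of the 15 members tested rose and 1 fell (4 and 0 without the block, 8 and 0 as deposited). Of complement genes 1 of the 12 members tested rose and 4 fell (0 and 2 without the block, 3 and 1 as deposited), and C1qb (-0.13 ± 0.11) was not called.

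Secreted matrix and growth factor genes contained the largest fall among the named genes. Thbs1, thrombospondin 1, which restrains vessel growth and activates latent TGF-β, had 46.3, 18.95 and 25.8 CPM under IL-4, against 354, 194 and 247 CPM in untreated macrophages (log2 change -3.14 ± 0.16, adjusted p = 1.4e-10; chromosome 2, 118111876 to 118127133, plus strand). Vegfa, the vascular growth factor, had 18.3, 12.1 and 12.98 CPM against 74.3, 39.7 and 54.3 CPM in untreated macrophages (log2 change -1.86 ± 0.17, adjusted p = 9.8e-08), and Gdf15, a stress-induced factor, fell by log2 1.82. Hbegf, a ligand of the EGF receptor, had 15.1, 8.39 and 5.51 CPM under IL-4 and 0.651, 0.299 and 0.309 CPM in untreated macrophages (log2 change 2.82 ± 0.24, adjusted p = 4.2e-08). In the list 11 of the 37 members tested rose and 14 fell (6 and 6 without the block, 14 and 8 as deposited).

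Iron handling changed at both ends. Slc40a1, ferroportin, the only known iron exporter of mammalian cells, had 21.7, 12.2 and 16.99 CPM under IL-4, against 205, 86.7 and 147 CPM in untreated macrophages (log2 change -2.98 ± 0.27, adjusted p = 1.1e-07; chromosome 1, 45908068 to 45926523, minus strand). Tfrc, the transferrin receptor that brings iron in, had 850.1, 543 and 447 CPM against 163, 64.4 and 66.4 CPM in untreated macrophages (log2 change 2.72 ± 0.12, adjusted p = 1.8e-11; chromosome 16, 32608920 to 32632794, plus strand). Replicate 1 was the highest in both groups for both genes. Hmox1, the haem-degrading enzyme, had 123, 81.6 and 73.8 CPM under IL-4 and 418, 289 and 249 CPM in untreated macrophages (log2 change -1.77 ± 0.15, adjusted p = 4.5e-08). Fth1, the ferritin heavy chain, fell (-0.85 ± 0.14) but was not called as deposited (-0.37). Of the iron and haem genes 3 of the 19 members tested rose and 10 fell (2 and 5 without the block, 7 and 2 as deposited). Antioxidant genes fell too: of the oxidative burst and antioxidant genes 0 of the 28 members tested rose and 17 fell (0 and 10 without the block, 2 and 7 as deposited). In 12 of the 28, called or not, all IL-4 libraries lay below all untreated ones, beside 16.4% of all genes. Nfe2l2, the factor NRF2 that drives antioxidant genes, had 213, 89.4 and 173 CPM under IL-4, against 529, 283 and 385 CPM in untreated macrophages (log2 change -1.37 ± 0.15, adjusted p = 9.7e-07). Txnrd1, thioredoxin reductase, fell by log2 1.20, Gsr, glutathione reductase, by 1.14 and Ncf1, a subunit of the phagocyte oxidase, by 1.17. Cyba, the oxidase's membrane subunit, was not called (-0.23 ± 0.11).

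Lipid mediator and receptor genes gave several single large changes. Ptgs1, the prostaglandin synthase COX-1, had 263, 89.3 and 224 CPM under IL-4, against 46.3, 17.96 and 42.2 CPM in untreated macrophages (log2 change 2.37 ± 0.077, adjusted p = 7.2e-13), with replicate 2 the lowest in both groups. Ptgir, the prostacyclin receptor, rose by log2 1.66 ± 0.13, and in the eicosanoid list 6 of the 18 members tested rose and 7 fell (3 and 1 without the block, 9 and 1 as deposited). Of nuclear receptors 3 of the 22 members tested rose and 13 fell (3 and 7 without the block, 7 and 4 as deposited). Rara, a retinoic acid receptor, rose by log2 1.04 ± 0.12, and Rora, an orphan receptor, fell by 1.14. Of the purinergic, lipid and adenosine receptors 5 of the 25 members tested rose and 9 fell (2 and 4 without the block, 7 and 4 as deposited), which is 20% and 36%, beside 23.9% and 23.6% over all genes. P2ry1, an ADP receptor, had 70.6, 69.9 and 75.8 CPM under IL-4, against 18.6, 21.6 and 22.2 CPM in untreated macrophages (log2 change 1.75 ± 0.12, adjusted p = 3.8e-09). S1pr1, a receptor for sphingosine 1-phosphate, fell by log2 2.04 and Lpar6, a receptor for lysophosphatidic acid, by 2.32. In the ion channel and carrier genes 6 of the 23 members tested rose and 9 fell (3 and 4 without the block, 8 and 4 as deposited). The 26.1% that rose were near the 23.9% over all genes, and 39.1% fell, beside 23.6%. Kcnj2, an inward-rectifier potassium channel, had 7.11, 4.16 and 9.04 CPM under IL-4, against 75.8, 55.4 and 56.6 CPM in untreated macrophages (log2 change -3.07 ± 0.26, adjusted p = 4.3e-08; chromosome 11, 111066164 to 111076821, plus strand), whereas Kcna3, a voltage-gated one, rose by 1.35 ± 0.2 and Clcn5, an endosomal chloride carrier, by 1.63 ± 0.14.

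Cathepsins and lysosomal proton pump subunits were called at about the shares over all genes, with 25% higher and 21.9% lower. Atp6v0a1, a membrane subunit of the pump, had 1273, 852 and 926 CPM under IL-4, against 326, 261 and 361 CPM in untreated macrophages (log2 change 1.67 ± 0.12, adjusted p = 6.1e-09), and Atp6v1b2, a subunit of its catalytic head, had 1414, 1012 and 869 CPM against 519, 387 and 397 CPM in untreated macrophages (log2 change 1.32 ± 0.1, adjusted p = 2.1e-08). The protease gene Ctsb was not called (-0.27 ± 0.11), although it was called lower with TMM scaling, with the filter at 5 CPM, by edgeR and by DESeq2 (adjusted p = 0.046, 0.022, 0.025 and 0.0021). In the list 8 of the 32 members tested rose and 7 fell (4 and 0 without the block, 17 and 0 as deposited). Of genes of endoplasmic reticulum folding and heat shock, 21 of the 35 members tested rose and 1 fell (13 and 1 without the block, 29 and 0 as deposited). Pdia4, a disulfide isomerase, had 626, 598 and 656 CPM under IL-4, against 102, 135 and 133 CPM in untreated macrophages (log2 change 2.35 ± 0.11, adjusted p = 3.2e-11; chromosome 6, 47796141 to 47813430, minus strand). Hsph1, a heat shock protein, rose by log2 1.31 ± 0.11, Ern1, the stress sensor IRE1α, by 1.22 ± 0.13 and Manf, a secreted chaperone, by 1.13 ± 0.14. Hsp90b1, a chaperone of the endoplasmic reticulum, was not called (0.14 ± 0.13). Of proteasome subunits 11 of the 31 members tested rose and 1 fell (2 and 0 without the block, 29 and 0 as deposited), and Psmb10, an immunoproteasome subunit, rose by log2 0.98 ± 0.094.

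Immediate-early genes moved both ways. Of these and mRNA-decay genes 5 of the 25 members tested rose and 11 fell (3 and 10 without the block, 8 and 8 as deposited). Fos, the AP-1 subunit, had 3.98, 1.47 and 1.52 CPM under IL-4, against 25.8, 9.22 and 11.2 CPM in untreated macrophages (log2 change -2.25 ± 0.17, adjusted p = 1.4e-08), and the kinase gene Sgk1 had 24.1, 13.5 and 21.01 CPM against 83.7, 58.03 and 68.8 CPM in untreated macrophages (log2 change -1.82 ± 0.3, adjusted p = 9.8e-05). Zfp36l2, an mRNA-decay factor, fell by log2 1.55, while Ier3, an early survival gene, rose by 2.62 ± 0.25. Of MAP kinase phosphatases and the Sprouty family 5 of the 21 members tested rose and 11 fell (4 and 9 without the block, 8 and 7 as deposited). Dusp4, a nuclear phosphatase of ERK, had 81.8, 79.7 and 51.1 CPM under IL-4, against 10.99, 8.02 and 5.41 CPM in untreated macrophages (log2 change 2.99 ± 0.13, adjusted p = 1.8e-11). Its relative Dusp1 went the other way, with 1.81, 1.47 and 0.965 CPM under IL-4 and 10.9, 7.07 and 5.49 CPM in untreated macrophages (log2 change -1.84 ± 0.19, adjusted p = 6.8e-07), and Rgs2, a brake on G-protein signalling, fell by log2 1.27.

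Growth-arrest and cell-cycle genes did not move as one. Of FOXO-linked and growth-arrest genes 5 of the 28 members tested rose and 13 fell (2 and 4 without the block, 6 and 2 as deposited). Arrdc3, an arrestin relative that directs receptors to breakdown, had 4.38, 4.09 and 5.71 CPM under IL-4, against 36.3, 33.00 and 50.9 CPM in untreated macrophages (log2 change -2.83 ± 0.13, adjusted p = 3.2e-11). Cdkn1a, the cell-cycle inhibitor p21, had 317, 241 and 286 CPM against 58.5, 72.5 and 61.2 CPM in untreated macrophages (log2 change 2.12 ± 0.24, adjusted p = 1.7e-06; chromosome 17, 29090976 to 29100727, plus strand). Of cyclins, CDKs and inhibitors of the G1 phase 4 of the 22 members tested rose and 10 fell (3 and 1 without the block, 6 and 3 as deposited), and Cdk4 was not called (0.055 ± 0.066). In DNA replication 0 of the 31 members tested rose and 13 fell (0 and 0 without the block, 4 and 1 as deposited) and in mitosis 0 of the 27 members tested rose and 6 fell (0 and 0 without the block, 1 and 0 as deposited). Both lists varied widely within each group: their summed levels ran from 451 to 916 CPM and from 239 to 1905 CPM under IL-4, against 510 to 1277 CPM and 171 to 2369 CPM in untreated macrophages. Cdc6, a replication licensing factor, had 0.256, 3.24 and 0.354 CPM under IL-4 and 0.624, 6.53 and 2.21 CPM in untreated macrophages, with replicate 2 the highest in both groups. It was called with the pairing (adjusted p = 0.0051) and not without the block (0.49), without replicate 3 in all groups (0.14) or with untreated replicate 1 as the lone control (0.4). Top2a, a gene of dividing cells, was not called (-0.46 ± 0.26).

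Survival genes were called at 32.1% in each direction and chromatin genes at 31.4% higher and 34.3% lower, beside 23.9% and 23.6% over all genes. Of apoptosis and survival genes 9 of the 28 members tested rose and 9 fell (4 and 5 without the block, 13 and 3 as deposited). Casp6, an executioner caspase, had 92.1, 117 and 94.8 CPM under IL-4, against 23.2, 21.3 and 20.5 CPM in untreated macrophages (log2 change 2.17 ± 0.12, adjusted p = 2.9e-10). The kinases Pim3 (1.79 ± 0.15) and Pim1 (1.31 ± 0.15) and the survival gene Bcl2 (1.32 ± 0.11) rose, Pmaip1, the death-promoting protein NOXA, fell by log2 1.63, and Bax was not called (0.2 ± 0.1). Of chromatin-modifying enzymes 11 of the 35 members tested rose and 12 fell (6 and 3 without the block, 16 and 0 as deposited). Tet2, a 5-methylcytosine oxidase, had 99.9, 88.6 and 78.8 CPM under IL-4 and 43.7, 50.4 and 51.2 CPM in untreated macrophages (log2 change 0.86 ± 0.12, adjusted p = 1.6e-05). Prmt1 (0.69 ± 0.066) and Prmt3 (0.8 ± 0.1), arginine methyltransferases, rose, whereas the methyltransferase gene Dnmt1 fell with the pairing (-0.76 ± 0.11, adjusted p = 2.3e-05) and was not called without it (adjusted p = 0.28) or as deposited (log2 -0.28).

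Other named falls were Rab7b, a GTPase of late endosomes, Arhgap22, a GTPase-activating protein, Lhfpl2, a membrane protein, Gpr162, an orphan receptor, and Rnf150, a ring-finger protein. Rab7b had 62.6, 47.2 and 37.02 CPM under IL-4, against 373, 368 and 238 CPM in untreated macrophages (log2 change -2.72 ± 0.14, adjusted p = 1.6e-10). Lhfpl2 had 68.6, 58.2 and 50.2 CPM against 379.9, 320.2 and 309.9 CPM in untreated macrophages (log2 change -2.5 ± 0.25, adjusted p = 3.8e-07). Arhgap22 fell by log2 2.70, Gpr162 by 2.53 and Rnf150 by 2.46. None of these 5 genes had an IL-4 library as high as any untreated library.

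The 3 libraries of macrophages given IL-4 for 2 h, of the same strain and medium, show which levels still moved between the time points. Between 4 h and 2 h of IL-4, 2258 of 11380 genes were called (19.8%), with 1036 higher (9.1%) and 1222 lower (10.7%) at 4 h. Without the block these were 144 and 176, and without replicate 3 in all groups 224 and 309. Retnla had 48.8, 41.9 and 41.3 CPM at 4 h, against 1.598, 1.43 and 1.46 CPM at 2 h (4 h minus 2 h, log2 4.17 ± 0.094, adjusted p = 9.9e-15). Tmem26 (2.31 ± 0.13), Scn3a (3.05 ± 0.12), Arg1 (2.2 ± 0.4), Prps1 (1.87 ± 0.18), Pdcd1lg2 (1.65 ± 0.21) and Ccl24 (1.6 ± 0.19) were also higher at 4 h than at 2 h. So were Tfrc (1.39 ± 0.12), Srm (1.05 ± 0.14), Il1r1 (1.55 ± 0.17) and Pecam1 (1.65 ± 0.2). Without the block the differences of Arg1, Ccl24 and Tfrc were not called (adjusted p = 0.064, 0.14 and 0.13). Among the falls, Slc40a1 had 21.7, 12.2 and 16.99 CPM at 4 h, against 108, 45.7 and 78.8 CPM at 2 h (log2 -2.08 ± 0.27, adjusted p = 5.1e-05), and Rnf150 (-1.9 ± 0.084) and Tlr13 (-1.48 ± 0.14) were lower at 4 h too.

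For other genes no difference between 4 h and 2 h was called. Cish had 75.3, 60.4 and 66.7 CPM at 4 h, against 66.1, 47.4 and 63.2 CPM at 2 h (log2 0.2 ± 0.2, adjusted p = 0.54). Egr2 (-0.12 ± 0.46), Myc (-0.25 ± 0.13), Nfil3 (-0.11 ± 0.21), Ahr (-0.14 ± 0.13), Il4ra (0.29 ± 0.18) and Cdkn1a (-0.068 ± 0.24) were not called between the times, and neither were the falls of Fos (-0.17 ± 0.17), Tnf (0.19 ± 0.31), Nfkbiz (0.19 ± 0.26), Kcnj2 (0.17 ± 0.26) and Arrdc3 (-0.078 ± 0.13). A few genes that had risen were lower at 4 h than at 2 h. Socs1 had 42.5, 66.9 and 55.6 CPM at 4 h, against 120.0, 75.1 and 64.8 CPM at 2 h (log2 -0.62 ± 0.19, adjusted p = 0.029), Cd44 was lower at 4 h by log2 0.74, P2ry1 by 0.74 and Rara by 0.56. That of P2ry1 was called in every alternative, whereas those of Socs1, Cd44 and Rara were not called without the block (adjusted p = 0.15, 0.13 and 0.25).

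**Figure D5:**
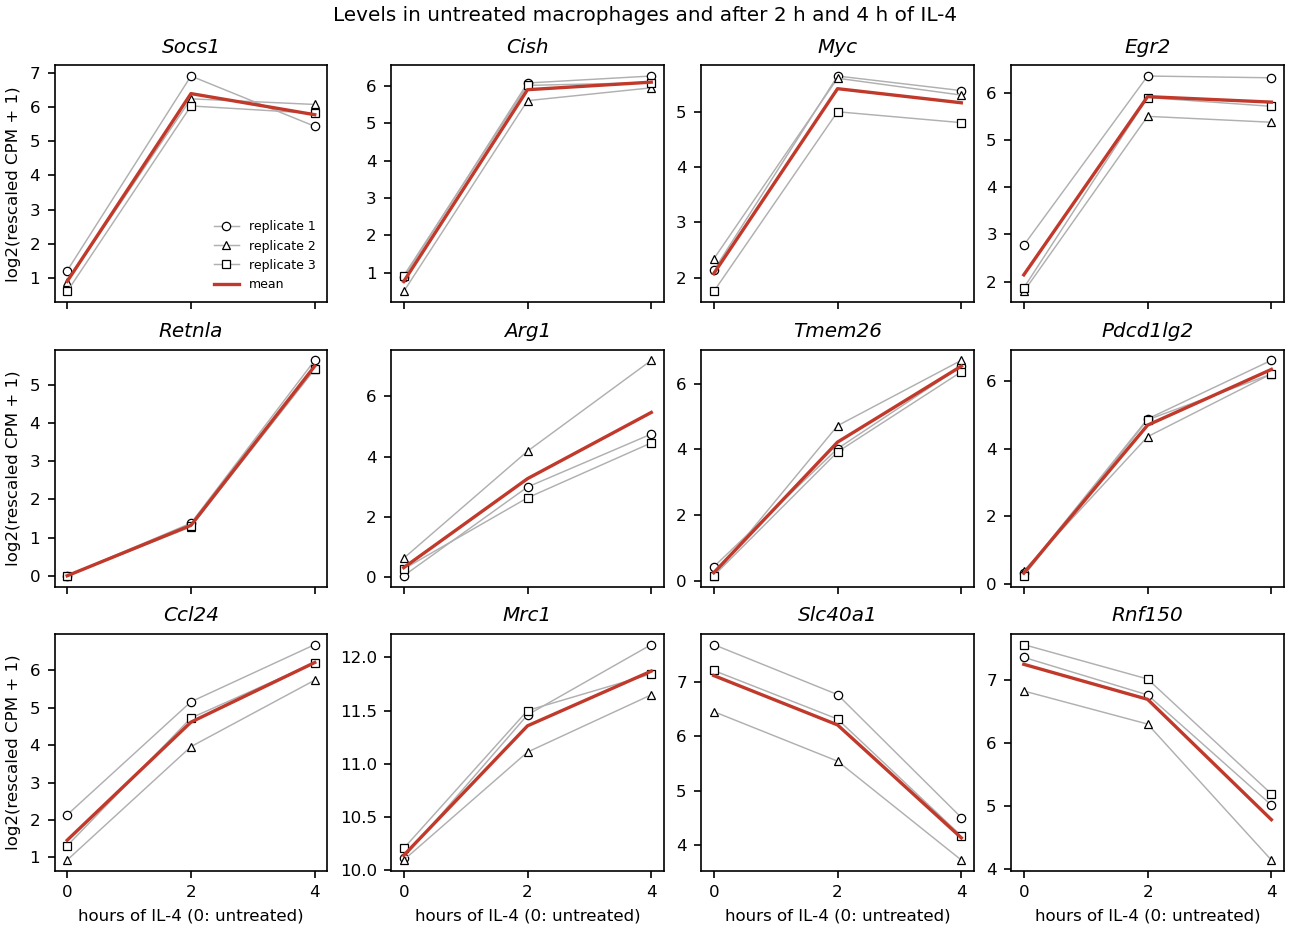
Levels of 12 named genes as log2(rescaled CPM + 1) in untreated macrophages (0 h) and after 2 h and 4 h of IL-4, with 1 thin line per replicate number and a red line for the mean of 3 libraries. Cish, Myc and Egr2 differ little between 2 h and 4 h and Socs1 is lower at 4 h, whereas Retnla, Arg1, Tmem26, Pdcd1lg2, Ccl24 and Mrc1 are higher and Slc40a1 and Rnf150 lower at 4 h than at 2 h.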

How the data were processed

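Poly(A) RNA sequencing values came from 1 deposited table of CPM (counts scaled to the reads of each library) with 24421 genes and 21 libraries, of which 6 are compared here and 3 more give the 2 h level. The other 24 samples of the series were not analysed here. Per the submitters' processing notes the authors used TopHat2 2.1.0, HTSeq and edgeR with the build mm10 or GRCm38; steps beyond these names are not given in the sources used here. Every CPM value was a whole number of reads within 0.01, which gave the depths.

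Libraries were rescaled by the median ratio over 13025 genes (factors 0.577 to 1.21). Genes with CPM of at least 1 in 3 or more libraries (11380) were fitted with limma 3.58.1 (R 4.3.3) on log2(CPM + 1), all 21 libraries, 1 mean per group, the replicate number as a block and 12 residual degrees of freedom. Adjusted p-values are Benjamini-Hochberg over all genes, and genes under 0.05 were called. Deviations from the group means correlated at 0.758, 0.845 and 0.562 between same-numbered IL-4 and untreated libraries, and at -0.735 to 0.185 otherwise, so the numbers pair the libraries. Within the IL-4 4 h group and within the untreated group no library was a copy of another, and other pairs were not checked for this. The procedure was tested on simulated counts with few changed genes and no Rn45s excess in single libraries. That test therefore does not cover the rescaling or the share of genes called here.

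Named genes are 16 key genes, the 15 largest rises and the 15 largest falls with at least 5 CPM, the same sign in all pairs and no overlap, and, in each list, up to 5 called members and up to 2 members not called; the text leaves some out, and a few results are not reported here. The members and lists were chosen with earlier results of these data known. Names matched 24335 genes. Coordinates are GRCm38 (GENCODE M21 and RefSeq GRCm38.p6). Alternatives included no block, deposited or TMM scaling, other pseudocounts and filters, each library left out, and edgeR 4.0.16 and DESeq2 1.42.0 on the recovered reads.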

Additional observations from a re-analysis of the deposited data

Results flagged for a closer look

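Of the 16 key genes, 9 had a level at 4 h of IL-4 that differed from that at 2 h in limma's paired test, adjusted over all genes. The differences, 4 h minus 2 h on the log2 scale, were 4.17 for Retnla, 2.31 for Tmem26, 2.2 for Arg1, 1.65 for Pdcd1lg2, 1.6 for Ccl24, 0.65 for Chil3, 0.61 for Cdh1, 0.51 for Mrc1 and -0.62 for Socs1. Those of Retnla, Tmem26 and Pdcd1lg2 were called in every alternative. Without the block those of Arg1, Ccl24, Chil3, Cdh1, Mrc1 and Socs1 were not called (adjusted p = 0.064, 0.14, 0.8, 0.1, 0.14 and 0.15). For Socs1 the difference without replicate 1 in all groups was -0.19 (adjusted p = 0.45).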

How the results depend on the processing

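The number of genes called against untreated macrophages stayed within 1.5 times 5409 in all alternatives except 2: it was 2515 without the replicate block and 3250 without replicate 3 in all groups. Leaving out 1 library or 1 replicate number gave 3250 to 5272 calls, and leaving out untreated replicates 2 and 3 gave 3660. Against 2 h, 320 genes were called without the block and 462 as deposited, beside 2258, and leaving out 1 replicate number gave 533 to 2528 calls. Counts of list members called were held to the same limit of 1.5 times, and a count that left 0 was taken as moved. Without the block 75 list counts moved and 47 did not, and as deposited 73 moved and 49 did not. Without replicate 3 in all groups 46 moved and 76 did not, whereas with TMM scaling 3 moved and 119 did not. Of 202 named genes, 202 kept their direction and side of the threshold with a pseudocount of 0.25 CPM, 200 with 4 CPM and 201 with no filter. On the deposited scale, where the median of all genes is 0.425, Stat6 (0.10), C3ar1 (0.13) and Cd28 (0.12) changed sign. They were no longer called there (limma adjusted p = 0.64, 0.59 and 0.62). Genes that were not called on the rescaled values changed sign too: Il2rg (0.31), Cd163 (0.11), Maf (0.28), Asl (0.41), Eef2 (0.39), Sdha (0.41), Gapdh (0.32), Pf4 (0.30), Tgfb1 (0.27), Myd88 (0.24), Irf8 (0.36), Cd68 (0.28), C1qb (0.35), Ctsb (0.21), Top2a (0.018) and Cyba (0.26). Left-out libraries turned only genes that were not called: with 1 replicate left out H2-Ab1 ran from -0.14 to 0.23, and without untreated replicates 2 and 3 H2-Ab1 was -0.17, Cox4i1 -0.0011 and Top2a 0.0025. The causes were not tested. Calls were lost by 12 named genes without the block and, besides Stat6, C3ar1 and Cd28, by 6 as deposited. Genes near or under 1 CPM are limited by depth.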

Other observations

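Markers of further cell types were low and few passed the filter. In the B-cell list 1 of 9 genes was tested and rose (Cd79b, log2 0.41), in the mast cell and basophil list 1 of 8 was tested and rose (Hdc, log2 0.34 ± 0.11), and in the natural killer cell list 1 of 8 was tested and not called. Of 3 dendritic cell genes tested none rose and Siglech fell by log2 0.44. No eosinophil, erythroid or platelet marker had enough reads to be tested. The calls of Cd79b, Hdc and Siglech were lost without the block (adjusted p = 0.15, 0.13 and 0.55), and all 3 were lost without replicate 3 and without untreated replicates 2 and 3. That of Cd79b was also lost with TMM scaling, by edgeR and without replicate 2, and that of Siglech as deposited and without replicate 1 or 2. The part of these genes in the results was not tested.

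Besides Retnla, Tmem26 and Pdcd1lg2, 8 genes called higher by log2 2 or more held TTCNNNNGAA in their promoter window. They are Rab15 (log2 change 4.71), Inadl (3.34), St7 (2.86), Ablim1 (2.86), Abcb1a (2.83), Apol7c (2.30), Plekhf1 (2.26) and Tfec (2.23). Some of these names were taken after their values were seen.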
